A study of Mus musculus with 19 samples.

Results

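What 17 weeks of high-fat feeding did to gene expression in epididymal white adipose tissue (eWAT), the visceral fat pad beside the testis, was measured in male C57Bl6/J mice whose diet held a normal amount of Mg2+. RNA sequencing covered 5 mice on the normal Mg2+ high-fat diet (NormMg-HFD) and 4 mice on the normal Mg2+ low-fat diet (NormMg-LFD), chosen by their diet label and making up 9 of the 19 libraries of the series. The mice were 9 to 10 weeks old at the start of the study, both diets took their fat from palm oil, at 60% or 10% of energy, and both held 0.21% wt/wt magnesium oxide. The other 10 libraries, from mice on 0.03% magnesium oxide with low fat (LowMg-LFD, n = 5) or high fat (LowMg-HFD, n = 5), entered the fit, where they took part in the filter on low values and in the estimate of the spread, and were used to ask whether the fat effect differed with Mg2+. With the NormMg mice alone 3194 of 8120 genes were called, against the 3114 of 8336 given below. Mice are named here by group and the number in their label, and there was no NormMg-LFD mouse 1, since 1 of the 5 low-fat samples had not passed the study's quality control. The mice were housed 6 per cage at the start, and which of them shared a cage later is not given in the sources used here, so diet and cage cannot be told apart.

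White fat stores triacylglycerol in adipocytes, which take up fatty acids or make them from glucose, and release them again by lipolysis between meals. Adipocytes also secrete hormones such as leptin and adiponectin. When fat cells enlarge in obesity, macrophages gather around dying adipocytes, take up their lipid and carry a gene programme of lysosomal digestion, while collagen accumulates in the pad. Epididymal fat of male mice is the depot in which this response has been described most often.

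Expression was given as FPKM, the fragments per kilobase of transcript, scaled to the mapped reads of the library, and was compared on the log2(FPKM + 1) scale, which understates the change of genes with low values. A gene was tested when, in any one diet group, its mean FPKM and the FPKM of 4 or more mice exceeded 8, which left 8336 of 24237 genes. A gene was called when the adjusted p of limma's moderated test, two-sided and corrected over all genes tested, was under 0.05. Genes are ordered by their log2 fold change on this scale where a largest rise or fall is named. Log2 fold changes are NormMg-HFD minus NormMg-LFD and follow with their SE, means with their SD. A gene that passed the filter only in the group where it was high was bound to differ, so a count over tested members does not speak for the whole list. The 53 gene lists held 1000 entries found in the table, of which 749 were tested and 251 were not.

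High-fat feeding was accompanied by a broad change of the eWAT transcriptome, in which macrophage and lysosome genes were among those that rose and lipogenic and adipokine genes among those that fell. Of the 8336 genes, 3114 (37.4%) were called, 2048 (24.6%) of them higher and 1066 (12.8%) lower on the high-fat diet. In 2677 genes (32.1%) the FPKM of the 5 high-fat mice and the 4 low-fat mice did not overlap. Of these, 1796 were higher and 881 lower on the high-fat diet, and 2456 were also called. Among called genes, 572 rose and 196 fell by more than 1 on the log2 scale, and 44 rose and 2 fell by more than 3. The split between directions depended on the scaling: 65.8% of the calls were higher with FPKM as deposited, 50.1% when every mouse was centred on its median and 46.9% after quantile normalisation, which moved the median log2 fold change of all tested genes from 0.07 to −0.03 and −0.04. Changes of about 0.1 or less are therefore not given a direction here. Values are given for 5 high-fat and 4 low-fat mice throughout. They follow the replicate numbers, and where ranges are set against each other the high-fat range comes first.

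The first principal component separated the diets. It held 66.8% of the variance over the 9 mice, and its scores were 30.2, 22.7, 37.4, 28.7 and 17.3 in NormMg-HFD mice 1 to 5 and −36.4, −38.0, −29.4 and −32.5 in NormMg-LFD mice 2 to 5. The groups did not overlap (difference in mean score 61.3, p = 0.0159 by exact permutation, two-sided, where 126 splits of the mice allow no smaller p). The second component, with 9.33% of the variance, did not separate the diets (exact permutation p = 0.889), and set NormMg-LFD mouse 4 at −27.9 apart from the other 8 mice at −7.88 to 13.4.

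**Figure D1:**
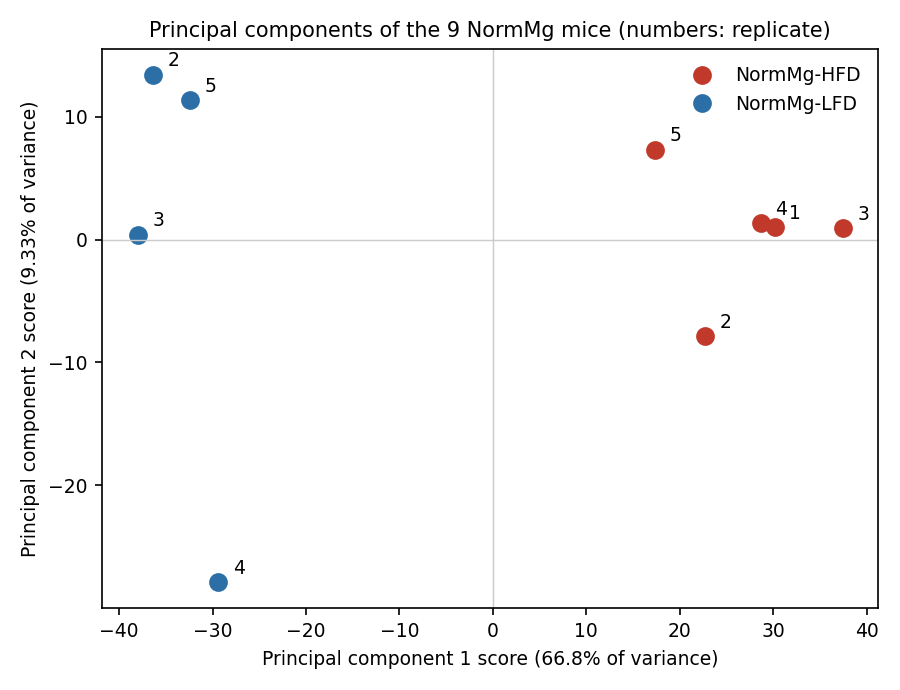
Scores on the first 2 principal components (x and y axes, no unit) of log2(FPKM + 1) over the 8336 tested genes in the 9 NormMg mice, with replicate numbers beside the points. The NormMg-HFD mice lie at 17.3 to 37.4 on component 1 and the NormMg-LFD mice at −38.0 to −29.4, and NormMg-LFD mouse 4 lies apart on component 2.

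Libraries held 12986622 to 13025644 reads, of which 86.1% to 90.4% mapped, least in NormMg-LFD mouse 4. Adipocyte genes were abundant in every library. Fabp4, the fatty acid carrier of fat cells, had an FPKM of 7489 to 9948 in the high-fat and 6132 to 8970.1 in the low-fat mice. The FPKM of 10 adipocyte markers summed to 13390 to 18092 in the high-fat and 17938 to 24220 in the low-fat mice. These sums include Cfd, described below, at 287 to 649 in the high-fat and 4122 to 7899 in the low-fat mice, and so carry its fall. Some libraries also held RNA of other organs, in amounts that differed between mice, and the keratin sums given below did not overlap between the diets. The summed FPKM of 18 pancreas genes was 1947 in NormMg-LFD mouse 3, where chymotrypsinogen Ctrb1 alone reached 342, against 18.4 to 62.2 in the other 8 mice. The study's methods tell of a LowMg-HFD sample set aside for pancreatic tissue, whereas in the files the 5 LowMg-HFD libraries had pancreas sums of 24.0 to 53.5. Whether labels were exchanged between libraries was not tested, so the label of NormMg-LFD mouse 3 is uncertain. The library labelled NormMg-LFD mouse 3 lay with the other low-fat mice on component 1, for which no LowMg mouse was used, and for Lep. Neither value is a test of its label. Without this library 2627 genes were called, 1719 higher and 908 lower. The sum of 6 sperm genes (Prm1, Prm2, Tnp1, Tnp2, Odf1 and Smcp) was 289 in NormMg-LFD mouse 4 and 707 in NormMg-LFD mouse 5, 46.7 in NormMg-LFD mouse 2, and 1.55 to 17.9 in the other 6 mice. Among 10 genes of the epididymis the highest FPKM was 4.39, and 4 were listed at 0 in every mouse. The epithelial keratins Krt8, Krt18 and Krt19 summed to 15.8, 34.4, 90.8 and 24.4 in NormMg-LFD mice 2 to 5 and to 4.11 to 7.38 in the high-fat mice. NormMg-HFD mouse 3 held the most neutrophil RNA, with a sum of 158.9 over 8 genes against 6.27 to 32.8 in the rest.

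**Figure D2:**
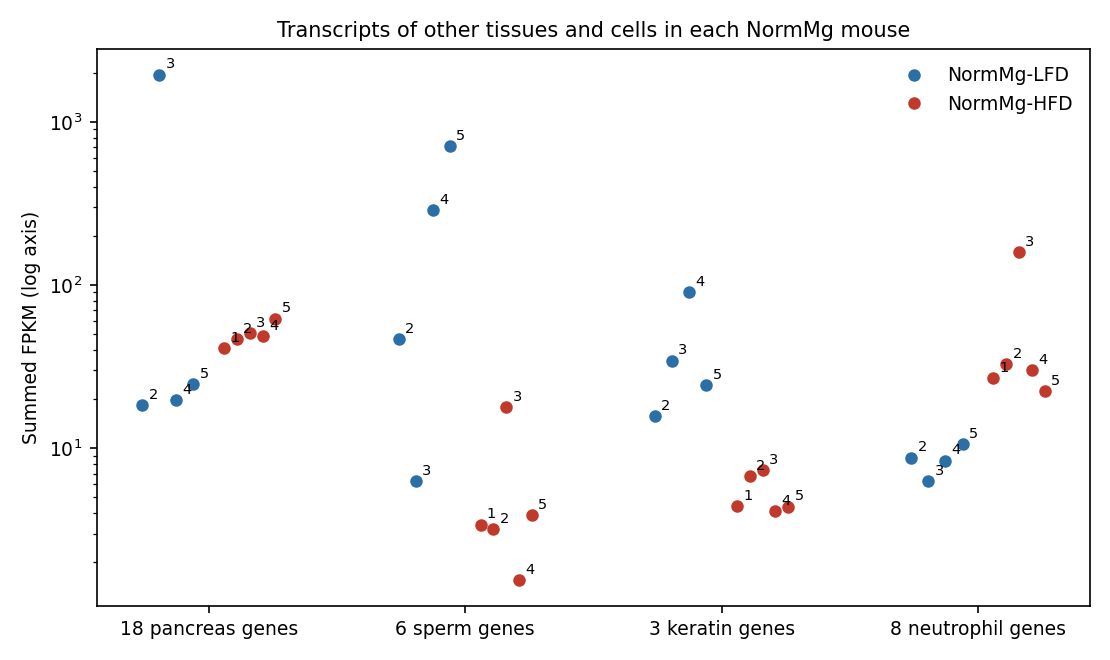
Summed FPKM (log axis) of marker genes of pancreas, sperm, epithelium and neutrophils in each NormMg mouse, with replicate numbers. Pancreas RNA stands out in NormMg-LFD mouse 3 (1947), sperm RNA in NormMg-LFD mice 4 and 5 (289 and 707), keratins in NormMg-LFD mouse 4 (90.8) and neutrophil RNA in NormMg-HFD mouse 3 (158.9).

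Gene lists are described by how many of their tested members were called. Of all tested genes, 24.6% were called higher and 12.8% lower, and list counts are to be read against these shares. A list's members were chosen by function, with earlier results of these data known. A count above these shares is therefore a description and not independent support. Of 474 calls among list members and named genes, 378 were not ended by leaving out any 1 of the 9 NormMg mice. A gene that then failed the filter, and so had no test, was counted as kept, so 378 is an upper bound. Where leaving out a mouse ended the call of a gene described here, or moved a list's count by more than 1.5 times, this is said beside it. Single members that ran against their list are named too and were picked after their values were seen. Some members that were not tested are counted as higher or lower in every high-fat mouse. The share of such genes among all 15901 genes not tested was not computed, so these counts have nothing to be read against. In whole tissue, fewer cells of a type and less RNA per cell cannot be told apart.

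Adipocyte hormones moved in opposite directions. Leptin, the satiety hormone that tracks fat mass, was 3.22-fold higher on the high-fat diet, whereas complement factor D (Cfd, also known as adipsin) was 13.9-fold lower and resistin (Retn) 4.47-fold lower. Lep (GRCm38 chr6:29065462-29070972) had an FPKM of 1090.4, 1205, 960.3, 1148 and 1285 in NormMg-HFD mice 1 to 5 and of 293, 313, 427 and 383 in NormMg-LFD mice 2 to 5 (log2 fold change 1.69 ± 0.3 SE, adjusted p = 0.00019), and no high-fat value overlapped a low-fat one. Cfd, a serine protease of the alternative complement pathway (chr10:79890853-79892656), was at 378, 397, 287, 350.3 and 649 in the high-fat and at 4385, 7899, 6492 and 4122 in the low-fat mice (log2 fold change −3.8 ± 0.34 SE, adjusted p = 1.36e-06). Among the tested genes whose groups did not overlap it had the lowest log2 fold change on the log2(FPKM + 1) scale, while the ratio of mean FPKM was more extreme for some others, such as Acsm3 (16.9-fold lower) and Adgrg2 (14.1-fold). Retn fell from 1222 ± 221 to 274 ± 60.8 (−2.16 ± 0.22, adjusted p = 1.36e-06), with no overlap.

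Adiponectin (Adipoq), a hormone made by adipocytes that favours insulin sensitivity, had FPKM values of 1117, 1131, 1072, 1217 and 1776 in the high-fat and 2438, 2140.3, 1422 and 2414 in the low-fat mice. It was called lower (−0.73 ± 0.18, adjusted p = 0.00332), but NormMg-HFD mouse 5 was above NormMg-LFD mouse 4. Angiotensinogen (Agt), the precursor of angiotensin, fell from a range of 75.2 to 184 in the low-fat mice to one of 12.8 to 28.9 in the high-fat mice (−2.58 ± 0.34, adjusted p = 9.88e-06). Of the 14 adipokines on the list, 12 were tested, 2 were higher and 7 lower, with a median log2 fold change of −0.76 against 0.07 over all genes tested. The other rise was Angptl4 (1.6), which inhibits lipoprotein lipase, and the other falls were Nrg4 (−1.08), Rbp4 (−1.02) and Fam132a (−0.79).

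Most genes listed for adipose expansion rose. Mest, an imprinted gene whose level in fat tracks pad growth, was at 259, 347, 352, 475 and 597 in the high-fat and 121, 120.3, 79.2 and 205 in the low-fat mice (1.64 ± 0.3, adjusted p = 0.000292). Every high-fat mouse was above every low-fat mouse. Sfrp5, a secreted antagonist of Wnt5a, ranged from 85.9 to 262 against 30.1 to 77.5 (1.57 ± 0.5, adjusted p = 0.0189), and the bone morphogenetic protein Bmp3 from 10.3 to 19 against 3.75 to 10.6 (0.94 ± 0.35, adjusted p = 0.0417). The call for Sfrp5 was lost without NormMg-HFD mouse 5 (adjusted p = 0.0505) or NormMg-LFD mouse 4 (0.0573), and that for Bmp3 under both other scalings and without NormMg-HFD mouse 2, 4 or 5 or NormMg-LFD mouse 3 or 4 (0.0649 to 0.145). In all, 5 of the 7 listed genes were called higher and none lower, with the largest rise in Tph2. Without NormMg-HFD mouse 5 or NormMg-LFD mouse 4, 3 of the 7 were higher. Tph2 encodes the neuronal form of tryptophan hydroxylase. It was at 28.6, 38.3, 46.5, 31.6 and 25.9 in the high-fat mice and at 0.65, 0.40, 0.61 and 0.92 in the low-fat mice (log2 fold change 4.4 ± 0.37 SE, adjusted p = 9.4e-07). Npr3, the natriuretic peptide clearance receptor, was at 169.7 to 234 against 190.1 to 205 (0.06 ± 0.18, adjusted p = 0.818) and was not called.

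Most genes of fatty acid synthesis from glucose fell. Of 18 tested genes of de novo lipogenesis (19 listed), 11 were lower, none higher and 13 without overlap, with a median log2 fold change of −1.02. Scd1 (chr19:44394451-44407709), the desaturase that makes oleate and one of the most abundant transcripts of the tissue, was at 4273, 4098, 3355, 4156 and 5815 in NormMg-HFD mice 1 to 5 and at 15579, 13268, 8894 and 12804 in NormMg-LFD mice 2 to 5. It fell 2.91-fold without overlap (log2 fold change −1.54 ± 0.2 SE, adjusted p = 7.23e-06). Acaca, the acetyl-CoA carboxylase that commits carbon to fatty acid synthesis, was at 46.2, 49, 33.8, 34.5 and 32.4 in the high-fat and 240.2, 209, 140.1 and 169.9 in the low-fat mice, a 4.85-fold fall (log2 fold change −2.24 ± 0.26 SE, adjusted p = 2.68e-06).

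Fatty acid synthase (Fasn) fell 2.66-fold, from 1138 to 2018 in the low-fat to 432 to 590.0 in the high-fat mice (−1.38 ± 0.33, adjusted p = 0.00307). Thrsp, a nuclear protein of lipogenic tissues, fell 4.13-fold (−2.09 ± 0.31, adjusted p = 2.98e-05). The transcription factors that drive the pathway fell with it, Mlxipl (ChREBP) by 2.53-fold (−1.26 ± 0.18, adjusted p = 1.98e-05) and Srebf1 by 1.98-fold (−0.98 ± 0.12, adjusted p = 3.77e-06), neither with overlap. ATP citrate lyase (Acly, −0.91 ± 0.41, adjusted p = 0.092) and the elongase Elovl6 (−0.83 ± 0.4, adjusted p = 0.117) were not called, although neither had overlapping groups. Acly was at 91.8 to 125 in the high-fat and 171 to 265 in the low-fat mice.

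Genes of esterification and lipolysis fell in part. Of 15 tested genes of triacylglycerol synthesis, 8 were lower and none higher (median −0.25). Pck1, which supplies the glycerol backbone from pyruvate and lactate, was at 101, 92.8, 105, 167 and 269.9 in the high-fat mice and at 1046, 869, 205 and 1055 in the low-fat mice (−2.3 ± 0.51, adjusted p = 0.00163). Only NormMg-LFD mouse 4, the library with the most keratin RNA, reached into the high-fat range. Mogat1, a monoacylglycerol acyltransferase, fell 4.24-fold (−1.99 ± 0.24, adjusted p = 4.69e-06) and Gpam, which adds the first acyl chain to glycerol phosphate, 1.95-fold (−0.92 ± 0.17, adjusted p = 0.000245). Dgat2, which adds the last, was at 995 to 1228 against 929 to 1279 (0.06 ± 0.24, adjusted p = 0.87) and changed sign with the scaling.

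In the lipolysis list 6 of 19 tested genes were lower and 2 higher. The rises, in the kinase subunit Prkar1a (0.2 ± 0.07, adjusted p = 0.0369) and the adenylyl cyclase Adcy5 (0.75 ± 0.26, adjusted p = 0.0299), were not called under either other scaling. Leaving out NormMg-HFD mouse 3, 4 or 5 or any NormMg-LFD mouse ended the call of at least 1 of the 2. The beta-3 adrenergic receptor (Adrb3), through which noradrenaline starts lipolysis, was at 122, 62.1, 67.9, 58.4 and 124 in the high-fat and 597, 672, 358 and 408 in the low-fat mice. The 5.86-fold fall was free of overlap (log2 fold change −2.57 ± 0.33 SE, adjusted p = 7.4e-06). Both enzymes that remove the first acyl chains fell, Pnpla2 (adipose triglyceride lipase) 1.64-fold (−0.69 ± 0.16, adjusted p = 0.00189, with overlap) and hormone-sensitive lipase Lipe 1.84-fold (−0.87 ± 0.15, adjusted p = 0.000141). The carboxylesterase Ces1d fell 3.09-fold (−1.63 ± 0.23, adjusted p = 1.57e-05). Monoacylglycerol lipase Mgll, the last enzyme of the series, was at 387 to 444 against 305 to 419 (0.17 ± 0.11, adjusted p = 0.252) and was not called.

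Among lipid droplet coats Plin1 fell and Plin2 rose. Plin1, the coat of adipocyte droplets, was at 609.6, 665, 540.1, 626 and 710.4 in the high-fat and 1189, 1101, 859 and 1070.4 in the low-fat mice (−0.74 ± 0.12, adjusted p = 0.000125). Plin2, found on droplets of most cell types including lipid-laden macrophages, was at 1017, 663, 1052, 868 and 637 in the high-fat and 191, 239.6, 164 and 211 in the low-fat mice (2.05 ± 0.24, adjusted p = 2.78e-06), a 4.21-fold rise. Neither gene had overlapping groups. Hilpda, a droplet protein that inhibits lipolysis, rose 3.05-fold (1.5 ± 0.21, adjusted p = 2.19e-05), while Plin4 fell (−0.88) and Cidec, which makes large droplets, was at 1502 to 2204 against 1054 to 2429 (0.03 ± 0.17, adjusted p = 0.905). Cidea, a related protein of brown fat, was at 1.49 to 3.88 against 2.55 to 3.49 and was not tested.

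Among genes of fatty acid uptake, 5 of 12 tested were higher and 1, Gpihbp1 (−0.33 ± 0.12, adjusted p = 0.0431), lower. The Gpihbp1 call was lost without any 1 of 7 mice, the exceptions being NormMg-HFD mouse 5 and NormMg-LFD mouse 4 (adjusted p 0.0506 to 0.166), and after median centring 3 of the 12 were higher. Cd36, the fatty acid translocase, was at 2264 to 2495 against 1540.0 to 1937 (0.38 ± 0.11, adjusted p = 0.0122), a call that was lost under median centring and without NormMg-LFD mice 4 and 5 together. Fabp5, the fatty acid binding protein of macrophages as well as fat cells, rose 2.43-fold (1.3 ± 0.26, adjusted p = 0.000578), and the acyl-CoA synthetase Acsl5 1.57-fold (0.63 ± 0.11, adjusted p = 0.000114). Lipoprotein lipase (Lpl) and Fabp4 were not called (−0.04 ± 0.12, adjusted p = 0.823, and 0.04 ± 0.15, adjusted p = 0.856). Of the caveola proteins, which line the adipocyte surface, Cav1 (−0.38 ± 0.11, adjusted p = 0.0132) and Ehd2 (−0.33 ± 0.12, adjusted p = 0.0402) fell, and the other 5 tested were not called. The Ehd2 call was lost without NormMg-HFD mouse 3 or 4 or NormMg-LFD mouse 2, 3 or 5 (adjusted p 0.0544 to 0.112), which left 1 of the 7 lower.

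**Figure D3:**
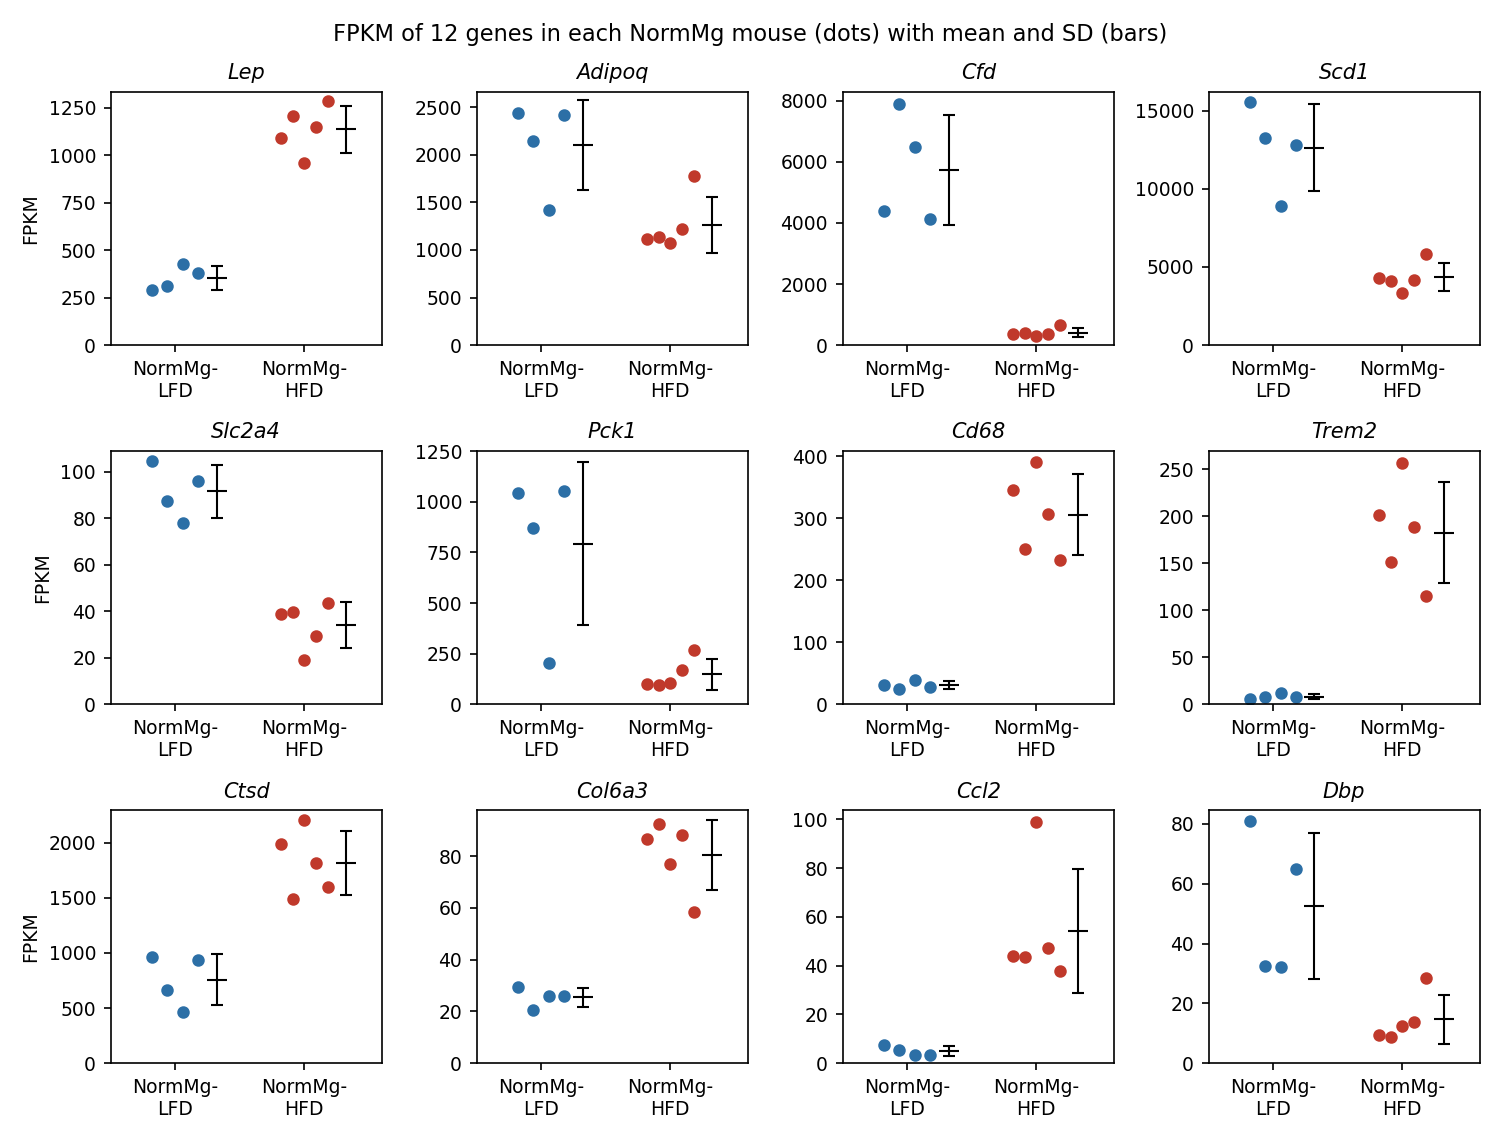
FPKM (y axis, from 0) of 12 genes in each of the 4 NormMg-LFD (blue) and 5 NormMg-HFD (red) mice, with the mean and SD beside the dots. Lep and the macrophage, lysosome, collagen and chemokine genes are higher and Cfd, Scd1, Slc2a4 and Dbp lower in every high-fat mouse, while Adipoq and Pck1 overlap between the diets.

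Among mitochondrial pathways, branched-chain amino acid breakdown had the lowest median. Adipocytes break down valine, leucine and isoleucine as a source of carbon for lipid. Of 22 tested genes of this pathway (23 listed), 16 were lower and none higher, with a median of −0.57, and 14 had groups that did not overlap. Ivd, the dehydrogenase of the leucine branch, was at 52.5, 77, 48.6, 44.8 and 77.6 in the high-fat and 151, 154, 156 and 157 in the low-fat mice, a 2.57-fold fall (log2 fold change −1.39 ± 0.17 SE, adjusted p = 4.79e-06). Aldh6a1, of the valine branch, fell 2.26-fold (−1.19 ± 0.14, adjusted p = 3.39e-06). The first steps shared by all 3 amino acids also fell, the transaminase Bcat2 by 1.66-fold (−0.72 ± 0.15, adjusted p = 0.00105) and Bckdha, a subunit of the rate-limiting dehydrogenase, by 1.74-fold (−0.79 ± 0.1, adjusted p = 4.89e-06).

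In the tricarboxylic acid cycle and its feeder enzymes, 11 of 20 tested genes were lower and 1, Sucla2 (0.31), was higher. Sucla2 was not called without NormMg-LFD mouse 4 (adjusted p = 0.0536) or 5 (0.0537) or under either other scaling. Pyruvate carboxylase (Pcx) fell from a range of 252 to 456 in the low-fat mice to one of 171 to 228 in the high-fat mice (−0.84 ± 0.18, adjusted p = 0.00114) and Pdha1, a subunit of pyruvate dehydrogenase, from 113 to 138 in the low-fat to 69.9 to 75.8 in the high-fat mice (−0.74 ± 0.14, adjusted p = 0.000354). Citrate synthase (Cs), a usual measure of mitochondrial content, was at 116 to 153 against 148 to 189 (−0.29 ± 0.13, adjusted p = 0.0817) and was not called. Of 72 tested subunits of oxidative phosphorylation, 28 were lower and 3 higher, with a small median of −0.18. The largest falls were in the complex I subunits Ndufa5 (−0.68 ± 0.12, adjusted p = 0.000167) and Ndufb8 (−0.61 ± 0.11, adjusted p = 0.000239). Ndufa4 also fell (−0.34 ± 0.08, adjusted p = 0.00291). This list was sensitive to scaling in number, with 38 lower after median centring, 52 after quantile normalisation and none higher in either, but its median kept its sign. With the replicate number as a block, in the NormMg mice alone, 14 were lower and none higher.

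Fatty acid oxidation was mixed, with 7 of 18 tested genes higher and 4 lower. Cpt1a, the carnitine palmitoyltransferase that admits long chains to mitochondria, was at 52.7, 50.9, 51.2, 55.9 and 49.6 in the high-fat and 27.3, 29, 32.6 and 32.6 in the low-fat mice (0.76 ± 0.12, adjusted p = 6.34e-05). Echs1, the enoyl-CoA hydratase, fell 1.66-fold (−0.73 ± 0.1, adjusted p = 1.21e-05). The medium-chain dehydrogenase Acadm (0.24 ± 0.11, adjusted p = 0.082) was not called, and Cpt1b, the muscle form, was at 1.15 to 5.4 against 0.66 to 4.34 and was not tested. Without NormMg-LFD mouse 4, 2 of the 18 genes were higher and 4 lower, and 2 were higher after median centring or quantile normalisation too.

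The insulin-regulated glucose transporter and the insulin receptor fell. Slc2a4 (GLUT4), the glucose transporter that insulin brings to the adipocyte surface, was at 38.6, 39.8, 19.2, 29.3 and 43.4 in NormMg-HFD mice 1 to 5 and at 105, 87.5, 77.9 and 96.1 in NormMg-LFD mice 2 to 5. All high-fat values lay below all low-fat values, a 2.69-fold fall (log2 fold change −1.45 ± 0.18 SE, adjusted p = 6.95e-06). The insulin receptor (Insr) fell 1.76-fold (−0.81 ± 0.14, adjusted p = 0.000122), and Irs1, its first substrate, was at 2.03 to 4.53 against 4.76 to 9.82 but under the filter. Of 17 tested genes of insulin signalling, 6 were lower and 2, Akt1 (0.53) and Tbc1d1 (0.59), higher. The call for Tbc1d1 was lost without NormMg-LFD mouse 3 (adjusted p = 0.0543) or 5 (0.0705). In glycolysis 5 of 18 tested genes were higher and 3 lower. Hexokinase 3 (Hk3), the form of leucocytes, rose 7.41-fold (2.59 ± 0.4, adjusted p = 4.76e-05), while hexokinase 2 (Hk2), the insulin-regulated form, fell 1.89-fold (−0.87 ± 0.17, adjusted p = 0.000404). Ldhb also fell (−1.29 ± 0.2, adjusted p = 4.93e-05), and Ldha (0.16 ± 0.12, adjusted p = 0.317) and Pkm (0.33 ± 0.15, adjusted p = 0.0915) were not called.

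Several transcription factors that maintain the adipocyte state fell. Pparg, the master regulator of adipocyte differentiation, was at 64.7, 78.8, 53.7, 69.9 and 75.5 in the high-fat and 130.1, 93.4, 115 and 95.6 in the low-fat mice (−0.66 ± 0.18, adjusted p = 0.00724). Cebpa, its partner, was at 187 to 215 against 269 to 362 (−0.65 ± 0.13, adjusted p = 0.000662), and Klf15 at 8.25 to 13.4 against 25 to 36.9 (−1.38 ± 0.18, adjusted p = 9.01e-06). None of these 3 overlapped between the diets. In all, 6 of 11 tested regulators were lower and 2 higher, among the latter Cebpb (1.15 ± 0.19, adjusted p = 8.98e-05), which acts early in adipogenesis and in inflammation. The other, the oestrogen-related receptor Esrra (0.29 ± 0.11, adjusted p = 0.046), lost its call under both other scalings and without NormMg-HFD mouse 1, 2, 3 or 5 or NormMg-LFD mouse 3 or 5. Ucp1, the uncoupling protein of brown and beige fat, was listed at 0.11 to 1.59 in the high-fat and 0 to 0.42 in the low-fat mice, and of 15 thermogenic genes 13 were not tested and the other 2 not called.

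Cholesterol genes rose in part. Of 22 tested genes of sterol synthesis and uptake (25 listed), 12 were higher and none lower (median 0.54). Hmgcs1, the first enzyme of the pathway, was at 135, 163, 123, 153 and 147 in the high-fat and 62.8, 73.4, 61.2 and 88.8 in the low-fat mice (1.01 ± 0.22, adjusted p = 0.00126), and Dhcr7, the last, at 16.9 to 30.6 against 9.12 to 12.2 (1.08 ± 0.23, adjusted p = 0.00103). Neither overlapped. Squalene epoxidase (Sqle) was at 11.3, 11.4, 11.4, 10.1 and 7.81 in the high-fat and 6.02, 7.33, 14.8 and 4.88 in the low-fat mice (0.4 ± 0.34, adjusted p = 0.382) and was not called, with its highest value in NormMg-LFD mouse 4. Without that mouse 14 of the 22 were higher. Without NormMg-LFD mouse 3, which held the pancreas RNA, 6 were, as many as without NormMg-LFD mouse 2. The number was 7 without NormMg-HFD mouse 3 or NormMg-LFD mouse 5 and after quantile normalisation.

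Genes of cholesterol ester breakdown and storage also rose in part. Lysosomal acid lipase (Lipa) was at 189, 136, 181, 176 and 127 in the high-fat and 19.3, 19.6, 22.8 and 23.6 in the low-fat mice, a 7.6-fold rise (2.85 ± 0.29, adjusted p = 1.4e-06). Nceh1, a neutral cholesterol ester hydrolase of macrophages, rose 11-fold (3.09 ± 0.37, adjusted p = 4.19e-06), and Soat1, which re-esterifies cholesterol, by 2.57 on the log2 scale. Apoe, the lipoprotein made by adipocytes and macrophages alike, fell 2.04-fold, from 3648 to 4034 in the low-fat to 1824 to 1988 in the high-fat mice (−1.03 ± 0.16, adjusted p = 5.74e-05). The efflux pump Abca1 was at 39.4 to 57.3 against 43.4 to 53.3 (−0.07 ± 0.11, adjusted p = 0.642). Of 10 tested genes 6 were higher and 1 lower.

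Of the magnesium channels and transporters a few rose at this Mg2+ supply. Of 14 listed genes 7 were tested, 3 were higher and none lower. The rises were in Tusc3, at 29.2 to 38 against 13.5 to 24 (0.83 ± 0.15, adjusted p = 0.000197), Nipa2 (0.8 ± 0.2, adjusted p = 0.00385) and Magt1 (0.5), all linked to Mg2+ uptake. Trpm7, the channel and kinase present in most cells, was at 15 to 18.6 against 18.3 to 23.2 (−0.22 ± 0.13, adjusted p = 0.214) and was not called. After median centring or quantile normalisation 3 of the 7 were higher and 2 lower, and without NormMg-HFD mouse 5 or NormMg-LFD mouse 2, 1 was lower.

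Most tested macrophage genes rose. Of 16 tested genes of macrophage identity, 14 were higher, none lower and all 14 without overlap, with a median log2 fold change of 2.26. Their summed FPKM, together with the 1 member not tested, was 2744 to 4297 in the high-fat and 623 to 795 in the low-fat mice. Cd68, a lysosomal glycoprotein of macrophages, was at 346, 250.4, 390.2, 307 and 233 in the high-fat and 31.2, 25, 38.9 and 27.7 in the low-fat mice (log2 fold change 3.26 ± 0.36 SE, adjusted p = 2.12e-06). Adgre1, which encodes the macrophage marker F4/80, was at 136, 105, 135, 113 and 74.2 in the high-fat and 14.8, 12.1, 14.5 and 14.1 in the low-fat mice, a rise of 8.12-fold (log2 fold change 2.91 ± 0.29 SE, adjusted p = 1.36e-06).

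The largest macrophage rise was in the protease cathepsin S (Ctss, 10.7-fold, 3.39 ± 0.34, adjusted p = 1.37e-06), followed by the pore-forming Mpeg1 (10.3-fold, 3.3 ± 0.31, adjusted p = 1.36e-06). Lysozyme (Lyz2) rose 3.76-fold (1.9 ± 0.21, adjusted p = 2.36e-06) and the growth factor receptor Csf1r 2.46-fold (1.28 ± 0.17, adjusted p = 9.05e-06). The 2 tested members that were not called were Aif1 (0.52) and the engulfment receptor Mertk (−0.33), which was called lower under both other scalings and without NormMg-HFD mouse 1 or NormMg-LFD mouse 5. The part of a changed mix of cells in these values, or in the falls of adipocyte genes above, was not tested.

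The genes of lipid-associated macrophages, cells that clear lipid from dying adipocytes, held several of the 15 largest rises. Trem2 (chr17:48346489-48350558), the lipid receptor that defines them, was at 202, 151, 257, 188 and 115 in NormMg-HFD mice 1 to 5 and at 5.55, 7.69, 12 and 7.39 in NormMg-LFD mice 2 to 5, a 22.4-fold rise (log2 fold change 4.32 ± 0.47 SE, adjusted p = 2.06e-06). Gpnmb, a glycoprotein of lipid-loaded macrophages, was at 542, 319, 548, 445 and 294 in the high-fat and 5.25, 8.35, 19.1 and 9.28 in the low-fat mice (log2 fold change 5.31 ± 0.63 SE, adjusted p = 3.52e-06). Atp6v0d2, a subunit of the lysosomal proton pump found in macrophages and osteoclasts, was at 99.8, 60.6, 97.8, 88.2 and 60.9 in the high-fat and 0.88, 0.82, 1.68 and 1.01 in the low-fat mice (log2 fold change 5.28 ± 0.52 SE, adjusted p = 1.36e-06). In all 3 every high-fat mouse was above every low-fat mouse.

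Mmp12 (chr9:7347406-7358888), macrophage elastase, had the highest log2 fold change on the log2(FPKM + 1) scale among the tested genes without overlap, rising from 5.18, 3.88, 15.8 and 7.45 in the low-fat to 545, 223, 479, 351 and 272 in the high-fat mice (log2 fold change 5.45 ± 0.6 SE, adjusted p = 2.15e-06). In the ratio of mean FPKM its rise of 46.2-fold was below the 74.2-fold of Atp6v0d2. The integrin Itgax, which encodes CD11c, rose 19.9-fold (3.91 ± 0.43, adjusted p = 2.12e-06) and the tetraspanin Cd9 2.81-fold (1.49 ± 0.26, adjusted p = 0.000155). Of 14 tested members 13 were higher, with a median of 3.47. The exception was Acp5, an acid phosphatase, which fell (−0.39 ± 0.13, adjusted p = 0.0201), a call that was lost without NormMg-HFD mouse 3 or NormMg-LFD mouse 2, 3 or 5 (adjusted p 0.0516 to 0.0812). Both members under the filter, Dcstamp and Ocstamp, were higher in every high-fat mouse.

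Genes of tissue-resident macrophages did not move together. Of 12 tested, 4 were higher and 2 lower (median −0.27), or 4 and 4 under either other scaling. The mannose receptor Mrc1 was at 70.7, 61.9, 76.6, 56.2 and 45.6 in the high-fat and 26.8, 26.5, 37.7 and 26.9 in the low-fat mice (1.05 ± 0.18, adjusted p = 0.000152). Retnla, which alternatively activated macrophages secrete, fell 2.41-fold, from 515 to 643 in the low-fat to 152 to 404 in the high-fat mice (−1.35 ± 0.26, adjusted p = 0.000446). The haemoglobin scavenger receptor Cd163 fell with overlap (−0.56 ± 0.22, adjusted p = 0.0461), a call that was lost without NormMg-HFD mouse 3 or 4 or NormMg-LFD mouse 2, 3 or 5 (adjusted p 0.096 to 0.131), without NormMg-LFD mice 4 and 5 together (0.0856) and when only the NormMg mice were fitted (0.0763). Lyve1 was not called (−0.29 ± 0.24, adjusted p = 0.365).

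Most tested lysosomal genes rose. Of 40 tested genes of lysosomal enzymes, membrane proteins and the vacuolar proton pump (42 listed), 34 were higher, none lower and 33 without overlap (median 0.74). Their summed FPKM was 7729 to 10561 in the high-fat and 3713 to 4361 in the low-fat mice. Cathepsin D (Ctsd) was at 1983, 1487, 2209, 1813 and 1598 in the high-fat and 960.2, 668, 468 and 938 in the low-fat mice (1.3 ± 0.21, adjusted p = 7.19e-05), cathepsin B (Ctsb) at 842 to 1157 against 302 to 403 (1.45 ± 0.17, adjusted p = 3.91e-06), and the membrane protein Lamp1 at 410.2 to 489 against 248 to 278 (0.75 ± 0.09, adjusted p = 2.68e-06). The largest rises were in the glycosidases Gla (5.08-fold, 2.02 ± 0.33, adjusted p = 8.04e-05) and Gusb (3.48-fold, 1.76 ± 0.2, adjusted p = 2.23e-06). Tfeb, the transcription factor known for inducing lysosomal genes, was higher as well (0.92 ± 0.17, adjusted p = 0.000263).

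Since these genes moved together, their promoters were searched for the letters TCACGTGA, the core of the element that Tfeb and its relatives bind, in the 250 bases before each RefSeq gene start (GRCm38.p6, both strands, palindromic). Of the 31 lysosomal genes with a promoter in the table, 5 held it, namely Ctsa, Ctsd, Gla, Atp6v1a and Mcoln1. Over all 27025 genes with a promoter the share was 0.907%, over the 6281 of them that were tested 1.91%, and over the genes called higher and lower 2.14% and 1.12%. The related letters TCATGTGA were in 2 of the 31, Gla and Atp6v0c, in 2 of 13 lipid-associated macrophage genes, Mmp12 and Acp5, in 0.984% of all and 0.78% of tested genes, and in 1.49% of those called higher. The central CACGTG, which the first motif contains, was in 10 of the 31, in 6.86% of all, in 10.2% of tested genes and in 11.3% of those called higher. These letters were picked after 14 motifs had been searched in 10 of the lists, and a match is a description of the sequence, not a site in use.

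The promoters of 4 lysosomal genes that rose are printed 5′ to 3′ on the gene's strand, ending at the base before the annotated start, to show where the TCACGTGA letters (in capitals) lie. The match ends 5 bases before the start in Ctsa (carboxypeptidase cathepsin A, 1.27 ± 0.17, adjusted p = 1.11e-05), 91 bases before it in Ctsd and 124 bases before it in Atp6v1a (a catalytic pump subunit, 1.26 ± 0.16, adjusted p = 4.79e-06), while Gla holds 2 matches. Mcoln1, the lysosomal calcium channel, also held the letters and was not called (0.17 ± 0.12, adjusted p = 0.306). The regions are chr2:164833523-164833772, plus strand for Ctsa; chr7:142387828-142388077, minus strand for Ctsd; chr16:44139260-44139509, minus strand for Atp6v1a; and chrX:134601006-134601255, minus strand for Gla.
Ctsa: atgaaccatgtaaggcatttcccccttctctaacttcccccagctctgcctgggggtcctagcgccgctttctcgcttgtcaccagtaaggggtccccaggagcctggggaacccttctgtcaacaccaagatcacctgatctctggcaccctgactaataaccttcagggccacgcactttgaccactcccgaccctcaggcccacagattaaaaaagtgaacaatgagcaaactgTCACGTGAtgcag
Ctsd: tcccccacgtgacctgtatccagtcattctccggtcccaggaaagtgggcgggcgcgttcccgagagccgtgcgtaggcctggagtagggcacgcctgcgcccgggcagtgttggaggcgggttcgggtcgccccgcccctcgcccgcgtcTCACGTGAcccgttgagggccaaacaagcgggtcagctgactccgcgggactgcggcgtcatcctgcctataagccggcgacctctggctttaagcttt
Atp6v1a: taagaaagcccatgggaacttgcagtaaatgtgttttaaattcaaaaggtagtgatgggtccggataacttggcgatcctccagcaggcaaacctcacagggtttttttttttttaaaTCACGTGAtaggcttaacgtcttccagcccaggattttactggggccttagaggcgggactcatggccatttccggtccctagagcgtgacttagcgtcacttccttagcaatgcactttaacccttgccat
Gla: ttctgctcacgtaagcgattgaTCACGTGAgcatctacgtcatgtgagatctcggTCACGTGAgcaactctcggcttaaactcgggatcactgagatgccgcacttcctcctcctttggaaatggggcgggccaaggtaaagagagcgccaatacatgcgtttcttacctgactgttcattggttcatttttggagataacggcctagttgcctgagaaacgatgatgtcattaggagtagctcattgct

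Genes of antigen presentation rose, all tested ones in class II and part of those in class I. All 6 tested class II genes were higher without overlap (median 1.2), and 6 more were not tested. H2-Aa was at 585, 607, 711, 587 and 592 in the high-fat and 284, 239.9, 305 and 252 in the low-fat mice (1.19 ± 0.17, adjusted p = 2.4e-05). The invariant chain Cd74 (1.17 ± 0.17, adjusted p = 3.4e-05) and H2-Ab1 (1.22 ± 0.18, adjusted p = 3.52e-05) rose too, as did H2-DMb1, which helps load peptides (2.25 ± 0.23, adjusted p = 1.36e-06). Of 14 class I genes, 8 were higher and none lower, among them H2-K1 (0.89 ± 0.16, adjusted p = 0.000193), the light chain B2m (0.62 ± 0.12, adjusted p = 0.000626) and the chaperone Calr (0.93 ± 0.11, adjusted p = 4.79e-06). The peptide transporter Tap1 was at 16.7 to 23.6 against 13.1 to 24.1 (0.18 ± 0.19, adjusted p = 0.501) and was not called.

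Every one of the 11 genes for Fc receptors and the phagocyte oxidase was tested and called higher, with a median of 2.24. Fcgr3, a receptor for IgG, was at 156, 104, 165, 109 and 86.5 in the high-fat and 22.2, 28.3, 25.7 and 22 in the low-fat mice (2.26 ± 0.24, adjusted p = 2.04e-06). Fcgr4, another, rose 11.1-fold (2.62 ± 0.4, adjusted p = 4.11e-05), and Cybb, the catalytic subunit of the oxidase, 5.27-fold (2.27 ± 0.27, adjusted p = 3.98e-06). Of 7 tested genes of Toll-like receptors and their adaptors (14 listed) 6 were higher, with the endosomal receptors Tlr13 (3.22 ± 0.41, adjusted p = 6.43e-06) and Tlr8 (2.64 ± 0.26, adjusted p = 1.36e-06) holding larger fold changes than Tlr4, the lipopolysaccharide receptor (0.67 ± 0.17, adjusted p = 0.00493). Of 5 tested leucocyte integrins (8 listed) 4 were higher and none lower, among them Itgb2 (CD18) by 7.58-fold (2.83 ± 0.3, adjusted p = 1.93e-06) and Itga5 by 2.58-fold (1.28 ± 0.18, adjusted p = 1.52e-05), while Itgal was at 1.71 to 6.32 against 1.57 to 2.57 and not tested.

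Transcripts of classical inflammatory cytokines were at low FPKM on both diets. Tnf was at 1.3, 1.66, 1.76, 1.65 and 1.18 in the high-fat and 0.12, 0.36, 0.74 and 0.12 in the low-fat mice, without overlap but under the filter. Il1b was at 0.25, 0.38, 26.4, 0.51 and 0.38 in NormMg-HFD mice 1 to 5 and at no more than 0.26 in the low-fat mice, so that 1 high-fat mouse, the one with the most neutrophil RNA, stood apart. Il6 was listed at 0 in 3 of 5 high-fat mice and at 2.99 in the same mouse.

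Il1rn, the receptor antagonist that blocks interleukin 1, was by contrast among the largest rises, at 46.4, 23.1, 43.4, 27.9 and 26.5 against 0.59, 0.86, 0.43 and 1.85 (log2 fold change 4.16 ± 0.42 SE, adjusted p = 1.36e-06). The inflammasome adaptor Pycard rose 4.36-fold (1.95 ± 0.25, adjusted p = 8.65e-06). Of 18 listed genes 5 were tested, and 4 of them were higher.

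Most tested chemokines and their receptors rose. Ccl2, which draws monocytes, was at 43.8, 43.3, 99, 47.1 and 37.8 in the high-fat and 7.63, 5.35, 3.24 and 3.49 in the low-fat mice, a rise of 11-fold without overlap (log2 fold change 3.19 ± 0.26 SE, adjusted p = 9.4e-07). Ccl9, a chemokine of myeloid cells, rose 7.28-fold (2.79 ± 0.34, adjusted p = 4.11e-06), and Ccl3 was at 2.32 to 13.2 against 0 to 0.72 but not tested. Cxcl14 rose with overlap (1.55 ± 0.35, adjusted p = 0.00193) and lost the call under quantile normalisation. Of 14 tested chemokines and receptors (27 listed) 11 were higher and none lower (median 1.27).

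Genes of complement other than Cfd rose in part. Of 16 tested, 10 were higher and 1, C2 (−1.72 ± 0.24, adjusted p = 1.98e-05), was lower. The first component C1qa was at 359.6, 336, 378, 294 and 232 in the high-fat and 122, 119, 122 and 127 in the low-fat mice (1.36 ± 0.19, adjusted p = 1.52e-05). The receptors C3ar1 (10.6-fold, 3.11 ± 0.35, adjusted p = 2.23e-06) and C5ar1 (7.7-fold, 2.76 ± 0.26, adjusted p = 1.36e-06) rose most, and C3 itself by 0.55 ± 0.18, adjusted p = 0.0243, a call lost under quantile normalisation and without NormMg-HFD mouse 2 or 3 or NormMg-LFD mouse 2 or 3 (adjusted p 0.0526 to 0.083). Without NormMg-LFD mouse 3, and after quantile normalisation, 6 of the 16 were higher. Of 9 tested interferon-stimulated genes (17 listed) 2 were higher, among them Bst2 (0.6 ± 0.11, adjusted p = 0.000361), and 1 was under either other scaling or without NormMg-HFD mouse 2 or NormMg-LFD mouse 3 or 5. Irf7 (−0.02 ± 0.21, adjusted p = 0.94) was not called and Isg15 was at 5.84 to 12.7 against 2.88 to 5.86, under the filter.

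Lymphocyte and mast cell genes were low, as were neutrophil genes in the low-fat mice. None of 18 lymphocyte genes was tested, and their summed FPKM was 22.3 to 73.0 in the high-fat and 21.0 to 30.2 in the low-fat mice. Cd3e, of the T cell receptor complex, was at 1.4, 5.83, 1.05, 0.70 and 1.12 in NormMg-HFD mice 1 to 5 and at 0.90, 0.36, 1.46 and 0.47 in the low-fat mice, so that NormMg-HFD mouse 2 alone stood out, as it did for Cd8a (2.69 against 0.29 to 0.88 in the other 8 mice). The mast cell protease Cpa3 was at 3.25 to 12.4 against 3.95 to 6.45, and none of 3 tested mast cell genes was called. The summed FPKM of 8 neutrophil genes, of which 1 was tested, was 22.4 to 158.9 in the high-fat and 6.27 to 10.6 in the low-fat mice. S100a8, a calcium-binding protein of neutrophils and monocytes, was at 20.2, 25.6, 70.5, 23.6 and 16.1 in the high-fat and 5.62, 2.28, 4.28 and 5.27 in the low-fat mice (2.43 ± 0.43, adjusted p = 0.000188).

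Among acute-phase and iron genes, 6 of 12 tested were higher and 3 lower. Serum amyloid A3 (Saa3), the form made in fat, was at 43, 57.1, 144, 97.3 and 90.5 in the high-fat and 3, 2.04, 5.03 and 7.62 in the low-fat mice, a 19.5-fold rise (log2 fold change 4.0 ± 0.49 SE, adjusted p = 4.79e-06). Haptoglobin (Hp) rose 2.57-fold (1.41 ± 0.34, adjusted p = 0.00319), haem oxygenase Hmox1 4.32-fold (2.05 ± 0.22, adjusted p = 2.12e-06) and Slc11a1, the metal pump of phagosomes, 5.51-fold (2.37 ± 0.3, adjusted p = 6.35e-06). The falls were in ceruloplasmin (Cp, −1.42), transferrin (Trf, −1.0) and its receptor (Tfrc, −0.62). Tfrc was not called without NormMg-LFD mouse 3 (adjusted p = 0.0555) or 4 (0.0828).

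**Figure D4:**
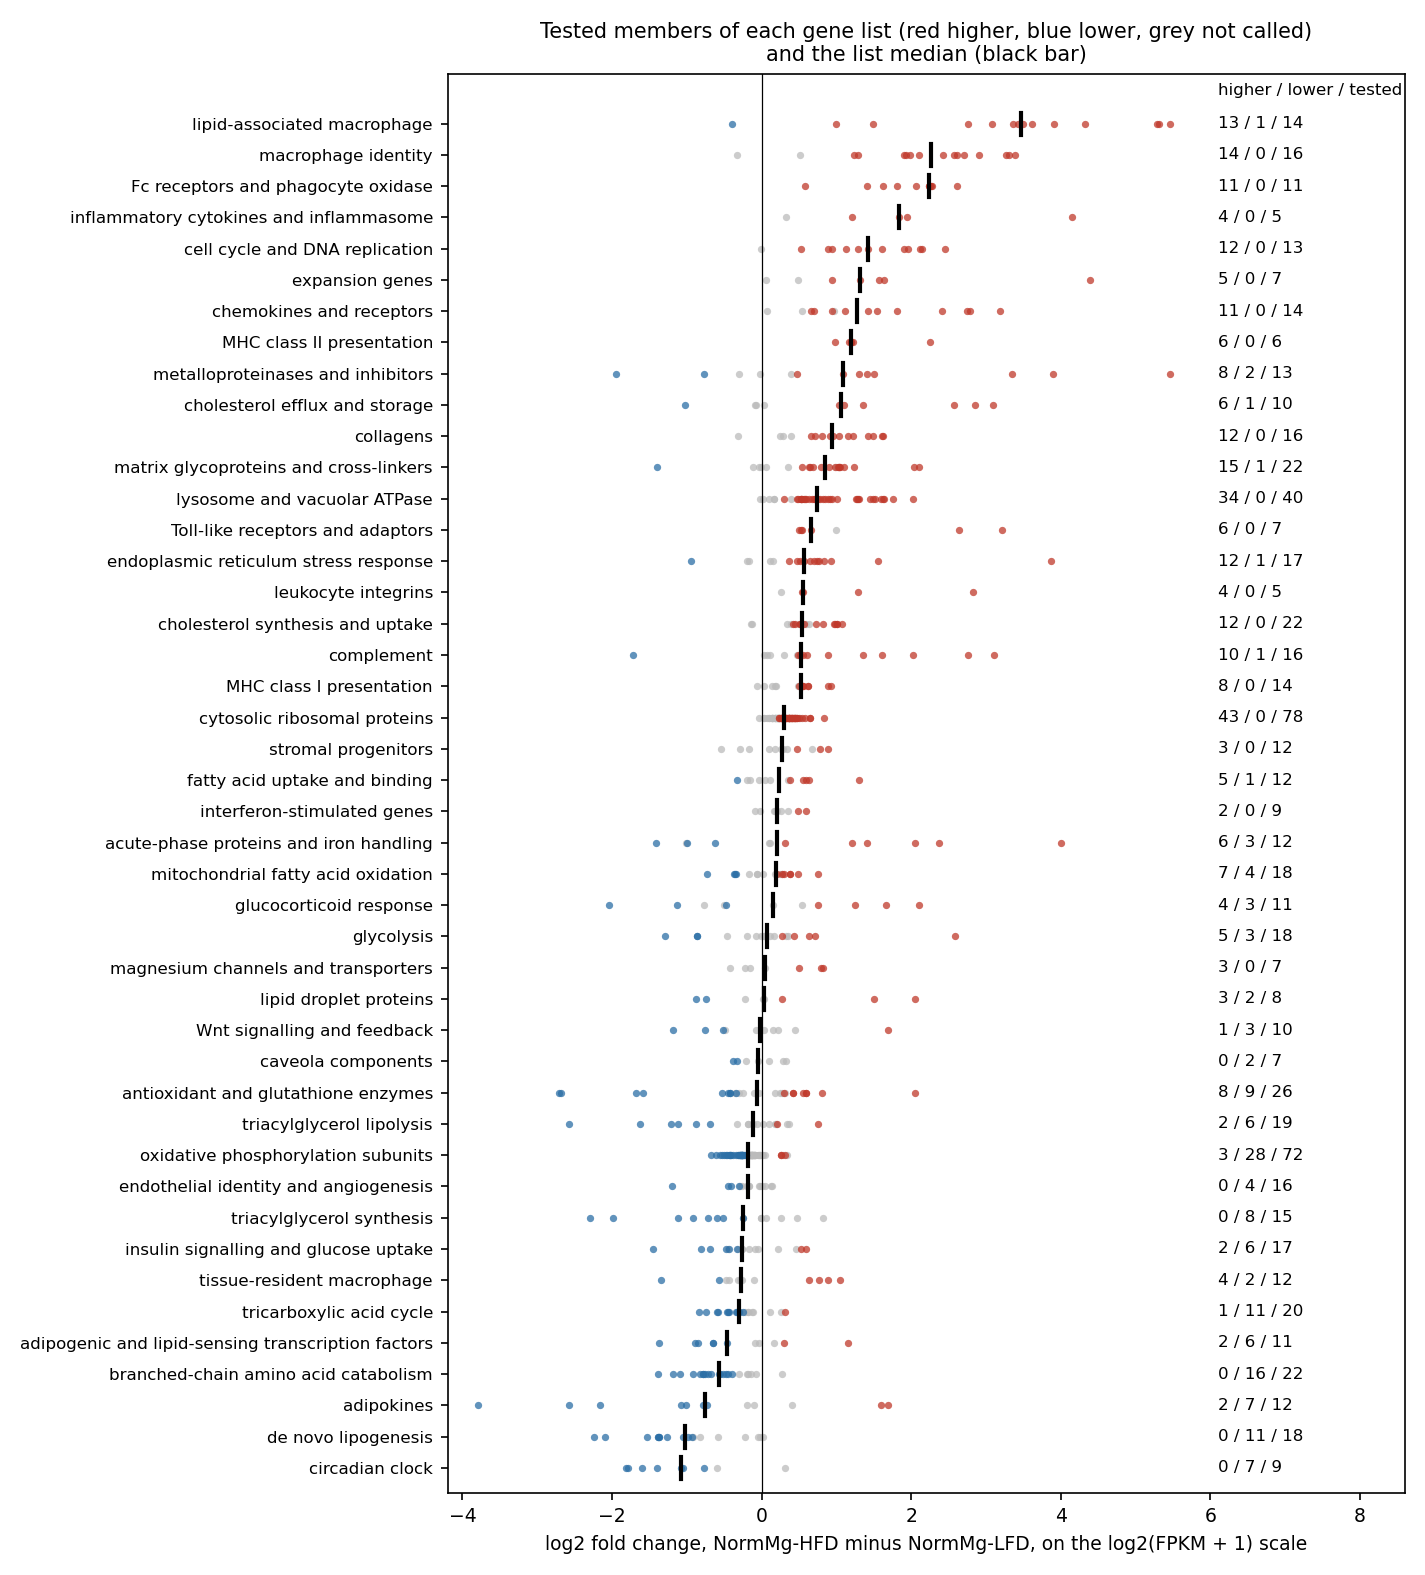
Log2 fold change (x axis, NormMg-HFD minus NormMg-LFD on the log2(FPKM + 1) scale) of each tested member of the lists with at least 5 tested members, one list a row, sorted by the median (black bar), with counts of higher, lower and tested members at the right. The lists of macrophage identity, lipid-associated macrophages, Fc receptors with phagocyte oxidase, and lysosome lie to the right. The lipogenesis, adipokine, branched-chain amino acid and clock lists lie to the left, as does the tissue-resident macrophage list (median −0.27).

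Most tested collagens rose. Of 16 tested collagens (21 listed) 12 were higher and none lower (median 0.94), with a summed FPKM of 2776 to 3373 in the high-fat and 1474 to 1669 in the low-fat mice. Col6a3, a chain of the collagen VI that surrounds adipocytes, was at 86.8, 92.3, 77, 88 and 58.2 in the high-fat and 29.4, 20.6, 25.8 and 26 in the low-fat mice (1.61 ± 0.19, adjusted p = 3.69e-06). The fibrillar collagens Col3a1 (3.11-fold, 1.62 ± 0.18, adjusted p = 2.12e-06) and Col1a1 (2.82-fold, 1.48 ± 0.2, adjusted p = 1.13e-05) rose alike. None of the 3 overlapped.

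Matrix proteins and the enzymes that cross-link collagen followed, with 15 of 22 tested genes (25 listed) higher and 1, the collagen-binding Fmod (−1.4 ± 0.35, adjusted p = 0.00377), lower. Fmod was not called without NormMg-LFD mice 4 and 5 together (adjusted p = 0.129). Periostin (Postn) rose 4.52-fold (2.1 ± 0.22, adjusted p = 1.53e-06) and lumican (Lum) 4.28-fold (2.04 ± 0.19, adjusted p = 1.36e-06). Sparc, which binds collagen, rose from 1107 to 1323 in the low-fat to 2176 to 2685 in the high-fat mice (0.98 ± 0.12, adjusted p = 5.83e-06), lysyl oxidase (Lox) from 15.1 to 18.5 in the low-fat to 27.8 to 48.7 in the high-fat mice (1.23 ± 0.19, adjusted p = 5.59e-05) and fibronectin (Fn1) from 124 to 159 in the low-fat to 191 to 277 in the high-fat mice (0.79 ± 0.22, adjusted p = 0.00923).

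The metalloproteinases and their inhibitors split. The inhibitor Timp1 was at 35.7, 14.6, 105, 46.2 and 18.9 in the high-fat and 0.42, 2.58, 5.58 and 3.4 in the low-fat mice (3.35 ± 0.52, adjusted p = 4.81e-05), highest in NormMg-HFD mouse 3. Timp4, an inhibitor made by adipocytes, was at 49.6, 40.5, 23.4, 31.6 and 63.1 in the high-fat and 136, 192, 146 and 152 in the low-fat mice (−1.95 ± 0.23, adjusted p = 3.39e-06). Neither overlapped, and the other fall was in Timp3 (−0.77). Adam8, a metalloproteinase of myeloid cells, rose 17.8-fold (3.89 ± 0.39, adjusted p = 1.36e-06), and stromelysin Mmp3 was at 3.51 to 19 against 0.10 to 0.96 under the filter. Of 13 tested genes 8 were higher and 2 lower.

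Of 16 tested endothelial and angiogenic genes 4 were lower and none higher. The number lower was 2 without NormMg-HFD mouse 1 or 3 or NormMg-LFD mouse 2, and 7 after quantile normalisation. Vegfa, the growth factor that calls in vessels, was at 50.2, 60.7, 54.4, 66.4 and 80.8 in the high-fat and 139, 197, 108 and 139.6 in the low-fat mice, a 2.33-fold fall without overlap (log2 fold change −1.2 ± 0.21 SE, adjusted p = 0.000223). The vessel-derived Egfl7 fell 1.37-fold (−0.45 ± 0.11, adjusted p = 0.00295). The endothelial junction genes Pecam1 (0.14 ± 0.1, adjusted p = 0.28) and Cdh5 (−0.02 ± 0.09, adjusted p = 0.909) were not called.

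Of 12 tested stromal progenitor genes 3 were higher and none lower. Under either other scaling, or without NormMg-HFD mouse 2, 2 were higher and 1 lower, and without NormMg-HFD mouse 5, 3 and 1. Mfap5 rose with overlap (0.89 ± 0.21, adjusted p = 0.0024) and Icam1, which marks committed preadipocytes, rose 1.8-fold (0.78 ± 0.14, adjusted p = 0.000311). Pdgfra, the receptor on most fat progenitors, was at 14.8 to 20.4 against 12.3 to 22.1 (0.27 ± 0.22, adjusted p = 0.358), and Dpp4 at 4.01 to 10.6 against 8.83 to 10.4 (−0.54 ± 0.22, adjusted p = 0.0562). In the Wnt list, 3 of 10 tested genes were lower and 1, Wisp2 (1.69 ± 0.44, adjusted p = 0.00489), was higher. Without NormMg-LFD mouse 4, 2 were higher and 3 lower.

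Axin2, a feedback target of the canonical Wnt pathway, was at 3.92, 6.46, 4.75, 5.62 and 8.62 in the high-fat and 9.67, 8.57, 31.3 and 15.4 in the low-fat mice (−1.19 ± 0.32, adjusted p = 0.00651). The highest value was that of NormMg-LFD mouse 4, and without NormMg-LFD mice 4 and 5 the gene was not called (adjusted p = 0.17). Sfrp2 (−0.07 ± 0.33, adjusted p = 0.88) was not called and Sfrp1, at 4.95 to 16.7 against 5.38 to 25.8, was not tested.

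Only 1 of 9 genes of the mesothelium, the lining of the pad, was tested. Krt19, an epithelial keratin, fell from 8.79, 9.8, 19.6 and 17.2 in NormMg-LFD mice 2 to 5 to 1.85 to 4.01 in the high-fat mice (−1.86 ± 0.45, adjusted p = 0.00278), and of the 8 members under the filter 5 were lower in every high-fat mouse, while Msln was at 1.7 to 5.75 against 3.2 to 16.2. The Krt19 call was lost without NormMg-LFD mice 4 and 5 (adjusted p = 0.0667), which also held the most sperm RNA, and the part of that RNA in this difference was not tested.

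Most tested proliferation genes rose. Of 13 tested genes of the cell cycle and DNA replication 12 were higher and none lower (median 1.43), and 11 of the 13 not tested were higher in every high-fat mouse. Birc5 (survivin) was at 12.9, 10.3, 11.9, 8.63 and 7.86 in the high-fat and 0.77, 0.94, 0.88 and 1.65 in the low-fat mice (2.45 ± 0.33, adjusted p = 1.06e-05). The mitotic kinase Cdk1 rose 5.27-fold (2.14 ± 0.38, adjusted p = 0.00018) and topoisomerase Top2a 4.66-fold (1.91 ± 0.28, adjusted p = 2.85e-05). Mki67, the proliferation marker, was at 5.34 to 9.01 against 0.95 to 1.59, without overlap but under the filter.

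Most genes of endoplasmic reticulum stress rose, 12 of 17 tested, with 1, asparagine synthetase (Asns, −0.95 ± 0.17, adjusted p = 0.000238), lower. The stress-induced factor Atf3 was at 79.9, 48.3, 72, 65.5 and 43.3 in the high-fat and 2.86, 1.76, 3.64 and 5.28 in the low-fat mice (log2 fold change 3.87 ± 0.43 SE, adjusted p = 2.35e-06), and Sdf2l1 rose 3.25-fold (1.56 ± 0.26, adjusted p = 8.98e-05). The chaperone Hspa5 (BiP, 0.83 ± 0.15, adjusted p = 0.000311) and Ddit3 (CHOP, 0.74 ± 0.14, adjusted p = 0.00032) rose less.

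Antioxidant genes split into 8 higher and 9 lower of 26 tested. Glutathione transferases Gsta3 and Gsta4, which detoxify lipid aldehydes, fell most. Gsta4 was at 6.97, 3.42, 1.59, 2.5 and 4.29 in the high-fat and 28.9, 26.4, 33.7 and 22.1 in the low-fat mice (log2 fold change −2.69 ± 0.34 SE, adjusted p = 6.61e-06), and Gsta3 fell 6.64-fold (−2.71 ± 0.27, adjusted p = 1.36e-06). The secreted peroxidase Gpx3 fell 3.34-fold (−1.69 ± 0.26, adjusted p = 4.27e-05), and Nqo1 was at 1.33 to 3.22 against 2.34 to 5.66, under the filter.

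Genes of cytosolic ribosomal proteins rose in part, by small amounts. Of 78 tested, 43 were higher and none lower, with a median of 0.29. The 2 largest rises were Rpl27 (0.84 ± 0.25, adjusted p = 0.0127, with overlap, not called without NormMg-LFD mouse 5) and Rps27a (0.65 ± 0.12, adjusted p = 0.000386), and Rpl3 (0.29 ± 0.12, adjusted p = 0.064) was not called. The median fell to 0.19 after median centring, with 22 higher, and to 0.11 after quantile normalisation, with 12 higher and 2 lower. Without NormMg-HFD mouse 3 or NormMg-LFD mouse 2, 27 were higher, and without NormMg-LFD mouse 5, 28.

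Most tested clock genes fell. Of 9 tested genes of the circadian clock 7 were lower and none higher (median −1.08), and 3 of the 9 not tested were lower in every high-fat mouse. Dbp, an output factor with a strong daily rhythm, was at 9.45, 8.74, 12.5, 13.9 and 28.6 in the high-fat and 81, 32.3, 32.3 and 64.8 in the low-fat mice (−1.79 ± 0.62, adjusted p = 0.0297). Per3, a repressor of the clock, was at 3.41, 5.41, 2.92, 4.85 and 7.31 in the high-fat and 20.7, 16.1, 18.2 and 19.6 in the low-fat mice (−1.81 ± 0.36, adjusted p = 0.000516). Arntl (BMAL1), which peaks opposite to these genes, was at 4.52 to 10.04 in the high-fat and 2.15 to 7.01 in the low-fat mice, under the filter and overlapping, and Per1 was not called (−0.59 ± 0.29, adjusted p = 0.123). The time of day at which each mouse was killed is not given in the sources used here, so diet and time of collection cannot be told apart. Dbp was not called without NormMg-HFD mouse 1, 2 or 3 or NormMg-LFD mouse 2 or 5 (adjusted p 0.0538 to 0.093), nor without NormMg-LFD mice 4 and 5 together (0.0905). Without NormMg-LFD mouse 4, 1 of the 9 clock genes was higher and 6 were lower.

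Glucocorticoid-linked genes were mixed, 4 of 11 higher and 3 lower. The number higher was 2 without NormMg-HFD mouse 3 or 4 or NormMg-LFD mouse 2 or 3, and after quantile normalisation. Hsd11b1, the enzyme that regenerates active glucocorticoid inside fat cells, was at 24.7, 31.4, 22.3, 20.2 and 30.6 in the high-fat and 114, 152, 109.5 and 71.7 in the low-fat mice, a 4.33-fold fall (log2 fold change −2.04 ± 0.21 SE, adjusted p = 1.36e-06). Cdkn1a (p21), a cell cycle inhibitor, rose 4.5-fold (2.1 ± 0.32, adjusted p = 4.16e-05). Fkbp5, a glucocorticoid receptor chaperone, was at 13.1 to 17.4 against 13.9 to 41.1 (−0.77 ± 0.38, adjusted p = 0.12). Of muscle genes 2 of 10 were tested, and Myl1 fell (−0.74 ± 0.16, adjusted p = 0.000993), while the other, Acta1, was called higher only without NormMg-LFD mouse 5.

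Several of the 15 largest rises belonged to no list. Ubd, a ubiquitin-like protein induced by inflammatory cytokines, was at 201, 207, 296, 249 and 211 in NormMg-HFD mice 1 to 5 and at 4.34, 6.32, 6.07 and 3.59 in NormMg-LFD mice 2 to 5 (log2 fold change 5.27 ± 0.54 SE, adjusted p = 1.4e-06). Rgs1, which dampens chemokine receptor signals in leucocytes, was at 61.1, 35.3, 54.4, 62.1 and 29.9 in the high-fat and 0.13, 1.39, 0.14 and 0.13 in the low-fat mice (log2 fold change 5.12 ± 0.48 SE, adjusted p = 1.36e-06). The sugar phosphate exchanger Slc37a2 rose 20.8-fold (3.96 ± 0.44, adjusted p = 2.23e-06).

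Tm4sf19, a membrane protein of the tetraspanin-like L6 family, was at 27.4, 16.5, 23.8, 22.9 and 17.9 in the high-fat mice and at 0, 0, 0.29 and 0.14 in the low-fat mice (4.34 ± 0.44, adjusted p = 1.4e-06). Vsig8 (4.1 ± 0.44, adjusted p = 2.07e-06) and the predicted gene Gm20056 (adjusted p = 1.4e-06) rose too, the latter at 46.2, 29.8, 29.4, 31.3 and 19.6 in the high-fat mice and listed at 0 in all 4 low-fat mice. Every low-fat value of Tm4sf19 and Gm20056 was under 0.30.

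Among the 15 largest falls, Cyp2e1, a cytochrome that oxidises ethanol and fatty acids, was at 203, 111, 51, 73 and 164 in the high-fat and 973, 1572, 801 and 1164 in the low-fat mice (log2 fold change −3.34 ± 0.44 SE, adjusted p = 1.04e-05). Acsm3, a medium-chain acyl-CoA synthetase, fell from a range of 7.3 to 22.4 in the low-fat mice to one of 0.61 to 1.21 in the high-fat mice (−2.95 ± 0.34, adjusted p = 2.68e-06), and Fam13a, a gene linked to fat distribution, from 24 to 107 in the low-fat to 3.49 to 9.39 in the high-fat mice (−2.75 ± 0.47, adjusted p = 0.000148). Dennd2d (−2.77 ± 0.32, adjusted p = 2.54e-06) and Cldn22 (−2.43 ± 0.3, adjusted p = 4.79e-06), a claudin, fell to a similar degree.

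Other large falls were in genes better known from other organs. Alb, serum albumin, was at 1.13 to 5.36 against 8.2 to 18.9 (−2.4 ± 0.4, adjusted p = 9.78e-05), the acute-phase protein Orm3 at 0.47 to 4.2 against 7.64 to 20.7 (−2.64 ± 0.43, adjusted p = 8.06e-05) and the cytochrome Cyp2f2 at 0.25 to 0.74 against 3.97 to 16.3 (−2.58 ± 0.46, adjusted p = 0.000229). Adgrg2, a receptor of the epididymal duct, was at 1.52, 2.92, 1.28, 2.42 and 1.77 in the high-fat and 11.2, 30.5, 61.2 and 8.76 in NormMg-LFD mice 2 to 5 (−2.91 ± 0.63, adjusted p = 0.00128), highest in mouse 4. Zan, which encodes the sperm protein zonadhesin, was at 2.28, 0.78, 0.80, 0.55 and 2.02 in the high-fat and 8.49, 18.4, 8.4 and 16 in the low-fat mice (−2.59 ± 0.53, adjusted p = 0.000751), with its highest value in mouse 3, where the 6 sperm genes summed to 6.31. The part of epididymal or testicular RNA in these values was not tested.

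The same fat contrast could be read in the LowMg mice, which share no library with the NormMg mice. There 1329 of 8336 genes (15.9%) were called between LowMg-HFD and LowMg-LFD. Of the 3114 genes called at normal Mg2+, 1039 (33.4%) were also called at low Mg2+, which was 78.2% of the low Mg2+ calls, and 1035 of the 1039 had the same direction. Whether or not it was called, 90.8% of the 3114 had the same sign at low Mg2+. Across the tested genes, which are not independent, the 2 sets of log2 fold changes had a Pearson r of 0.745, given as a description.

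Lep had log2 fold changes of 1.69 at normal and 1.73 at low Mg2+ (interaction −0.04, adjusted p = 0.97). Hilpda (1.5 and 1.53) and Fasn (−1.38 and −1.53) had values close to each other, and Cyp2f2 (−2.58 and −2.61) and Zan (−2.59 and −2.43) fell at both. An interaction p above 0.05 does not show that 2 effects are equal.

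The test of the difference itself, the interaction of fat and Mg2+, was past the threshold in 104 genes (1.25%), and in 98 of them the change was larger at normal Mg2+. The 5 largest interaction terms were in Rgs1, Tph2, Stap1, Basp1 and Agt. Rgs1 rose by 5.12 at normal and 1.94 at low Mg2+ (interaction 3.18, adjusted p = 0.0447) and Tph2 by 4.4 and 1.74 (interaction 2.66, adjusted p = 0.0343). Stap1, a leucocyte adaptor, rose by 3.14 at normal Mg2+ and had a value of 0.95 at low Mg2+ (interaction 2.2, adjusted p = 0.0447), and Basp1, a membrane-bound signalling protein, 2.74 and 0.75 (interaction 1.99, adjusted p = 0.0447). Agt had a log2 fold change of −2.58 at normal Mg2+ and of −0.65 at low Mg2+ (interaction −1.93, adjusted p = 0.0495).

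Of the genes described above, the interaction was also past the threshold for Timp4 (−1.71, adjusted p = 0.0343), Lum (1.41, 0.0343), Adgre1 (1.72, 0.0447), C5ar1 (1.65, 0.0447), Fcgr3 (1.46, 0.0447), Plin2 (1.44, 0.0447), Col3a1 (1.1, 0.0447) and Calr (0.68, 0.046). For Trem2 it was not (1.89, adjusted p = 0.104), nor for Mmp12 (2.01, adjusted p = 0.178). The number of interaction calls was unstable: with the other scalings it was 245 (median centring) and 347 (quantile), it was 0 when NormMg-HFD mouse 1, 3 or 4 or NormMg-LFD mouse 2 or 3 was left out, 1 without NormMg-LFD mouse 5 and 328 without NormMg-HFD mouse 5, and 34 without LowMg-HFD mouse 4, in whose library the 6 sperm genes summed to 3230.

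**Figure D5:**
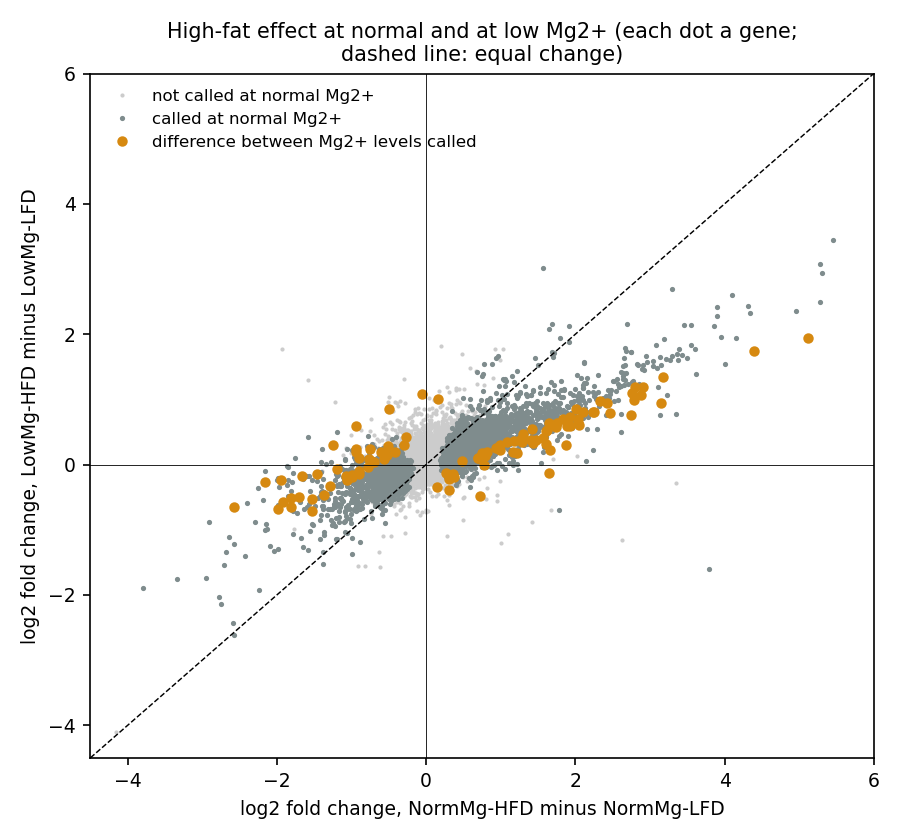
Log2 fold change of the 8336 tested genes on the high-fat diet at normal Mg2+ (x axis, NormMg-HFD minus NormMg-LFD) and at low Mg2+ (y axis, LowMg-HFD minus LowMg-LFD), with the 104 genes whose difference between Mg2+ levels was called in orange. Most called genes keep their sign at low Mg2+ (90.8%), and the dashed line marks equal change.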

How the data were processed

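Total RNA of eWAT from individual mice, snap frozen and extracted with TRIzol, was sequenced as single 50-base reads. The authors mapped the reads with HISAT and Bowtie2, and the deposited FPKM values were estimated with RSEM 1.2.31 on GRCm38. RSEM divides reads that match several genes, so values of near-identical genes (the H2, Ces1, Gsta, Cyp2 and Orm families and ribosomal proteins) are uncertain. The deposited mapping summary gave the count of reads and the percent mapped for each library. Depth was nearly equal, and FPKM keeps no counting error for a gene.

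From the table, 24237 of 24238 genes were used. One gene with a cell that was not a number was left out, 12 continuation lines without an identifier were skipped, and 26 symbols turned into dates were restored. Values of log2(FPKM + 1) of all 19 mice were fitted in 1 model of 4 groups with limma 3.58.1 in R 4.3.3 (lmFit and eBayes with an intensity trend), which was first tested on simulated data. P-values were adjusted by Benjamini and Hochberg over the genes tested. Principal component scores were compared by an exact permutation test, written in Python 3.11.15 with numpy 2.4.6.

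The genes named were the 15 largest rises and falls among called genes without overlap, key genes of 53 function lists, up to 2 members of each list with the largest called change, and the 5 largest called interaction terms. A few of these genes are not reported here. The comparison, the lists and their members were chosen with earlier results of these data known. Promoter sequences came from RefSeq (GRCm38.p6), and gene coordinates from the deposited table. Alternatives were other pseudocounts, filters, scalings and fits, and leaving out each NormMg mouse and LowMg-HFD mouse 4.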

Additional observations from a re-analysis of the deposited data

Results flagged for a closer look

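The fat effect differed between Mg2+ levels, by the adjusted p of limma's interaction term, for 13 of the genes named above. Positive terms mean a higher log2 fold change at normal than at low Mg2+. The terms were 3.18 for Rgs1, 2.66 for Tph2, 2.20 for Stap1, 1.99 for Basp1, 1.72 for Adgre1, 1.65 for C5ar1, 1.46 for Fcgr3, 1.44 for Plin2, 1.41 for Lum, 1.10 for Col3a1 and 0.68 for Calr. They were −1.93 for Agt and −1.71 for Timp4. These 13 rest on a count of calls that fell to 0 without any of 5 single NormMg mice.

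In 32 of 410 groups of mice examined, 1 mouse lay apart from the others of its diet by Dixon's criterion, which chance would give in about 1 group in 20. NormMg-HFD mouse 3 was the highest of its group for Cd74 (FPKM 1560), H2-Aa (711), H2-Ab1 (489), Ccl2 (99.0), S100a8 (70.5), Il1b (26.4), Ccl3 (13.2) and Il6 (2.99), and the summed FPKM of 8 neutrophil genes was also highest in it. NormMg-HFD mouse 2 was the highest for Cd3e (5.83) and Cd8a (2.69). NormMg-HFD mouse 5 was the highest for Adipoq (1776), Dbp (28.6), Alb (5.36) and Orm3 (4.20) and the lowest for Lum (72.5) and Pdgfra (14.8), and it had the lowest score of its group on component 1.

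Among the low-fat mice, NormMg-LFD mouse 4 was the highest for Egfl7 (136), Col1a1 (74.3), Csf1r (58.1), Mrc1 (37.7), Tlr8 (4.89), Nceh1 (4.57) and Slc37a2 (4.46) and the lowest for Fabp4 (6132), Cd36 (1540.0) and Thrsp (568). The same library stood apart on component 2 and had the largest keratin sum. NormMg-LFD mouse 2 was the highest for Npr3 (205), Elovl6 (21.8) and Il1b (0.26), mouse 3 for Mogat1 (47.8) and Rgs1 (1.39), and mouse 5 for Mfap5 (62.5).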

How the results depend on the processing

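The number of genes that differed between the diets ranged from 2594 to 4033 over the alternatives against 3114, and leaving out 1 NormMg mouse gave 2627 to 3109 called, 1719 to 2179 higher and 896 to 1054 lower. Without LowMg-HFD mouse 4 there were 3266 calls, 2123 higher and 1143 lower. Quantile normalisation raised the number lower to 1696. The replicate numbers did not pair the mice (correlations of deviations −0.09, 0.02, −0.00 and 0.09, best with the own number in 1 of 4), and with the number as a replicate block, fitted to the NormMg mice alone, 2594 of 8120 genes were called, 1754 higher and 840 lower, against 3194 in the same mice without the block. In the block fit NormMg-HFD mouse 1 has no partner and adds nothing to the difference. Cav1 (adjusted p = 0.0559) and Cd36 (0.079) were not called in it, and were in the same mice without the block (0.012 and 0.0121). In the block fit 14 of 72 subunits of oxidative phosphorylation were lower and none higher, 26 of 78 ribosomal protein genes were higher, 4 of 18 genes of fatty acid oxidation were higher and 2 lower, and 2 of 16 endothelial genes were lower. Leaving out NormMg-LFD mice 4 and 5 was chosen after seeing the data and gave 2642 calls, 1871 higher and 771 lower.

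The count of interaction calls was the least stable, at 104 against 48 with a filter at FPKM 1, 2 with no filter, 67 without the intensity trend, 24 with a pseudocount of 0.1, 245 with median centring, 347 with quantile normalisation, 34 without LowMg-HFD mouse 4 (an alternative planned for pancreas RNA, which that library did not hold), 0 to 328 without single NormMg mice and 0 without NormMg-LFD mice 4 and 5. At an unadjusted p under 0.05 there were 1698. The cause was not tested.

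Among named genes, the values that changed sign were all of genes that had not been called. Cdh5 turned to 0.0032 with the replicate block and ranged from −0.068 to 0.031 without single mice. Cidec turned to −0.071 with median centring, −0.054 with quantile normalisation and −0.084 without NormMg-LFD mice 4 and 5, and ranged from −0.21 to 0.19 without single mice. Dgat2 turned to −0.044 with median centring and −0.30 with quantile normalisation, Npr3 to −0.040 and −0.13, and Dgat2 ranged from −0.013 to 0.14 without single mice. Fabp4 turned to −0.062 with median centring and −0.093 without NormMg-LFD mice 4 and 5, and ranged from −0.086 to 0.096 without single mice. With quantile normalisation Lpl turned to 0.18 and Mgll to −0.034. Without NormMg-LFD mice 4 and 5 Irf7 turned to 0.19, Sfrp2 to 0.18 and Lyve1 to 0.012. The ranges without single mice were −0.16 to 0.13 for Irf7, −0.14 to 0.042 for Lpl and −0.22 to 0.072 for Sfrp2.

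Of 474 calls among list members and named genes, leaving out 1 NormMg mouse ended 20 to 68, the largest number without NormMg-LFD mouse 3. Median centring ended 55, quantile normalisation 72, no filter 56 and the replicate block 64. Genes that failed the filter in an alternative were not counted as ended, so these numbers are lower bounds. Among the named genes, 3461 of the recomputed values kept direction and call, 60 lost the call and 29 gained it. Of the recomputed list medians, 890 stayed within the spread and 56 moved. Medians changed sign in 7 alternatives for the Wnt list, 5 for lipid droplet proteins and 3 for magnesium channels and transporters. They did so in 2 alternatives each for glycolysis and caveola components, and in 1 each for the pancreas and muscle lists. The first component separated the diets in every alternative run. Each group held 4 or 5 mice, FPKM keeps no counting error, and genes under the filter had no test.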
